A study of Saccharomyces cerevisiae with 4 samples.

Results

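Cyclophilins and FK506-binding proteins are the main families of prolyl isomerases, enzymes that turn the peptide bond before a proline between its cis and trans forms and so help proteins fold. Cyclophilins bind cyclosporin A and FK506-binding proteins (FKBPs) bind FK506 and rapamycin, and the drug-bound isomerases then inhibit the phosphatase calcineurin or the kinase complex TORC1. In yeast the members sit in different compartments: Cpr1 and Fpr1 in the cytosol and nucleus, Cpr3 in the mitochondrion, Cpr2, Cpr4, Cpr5, Cpr8 and Fpr2 along the secretory pathway, and Fpr3 and Fpr4 in the nucleolus and nucleus.

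The family was defined by gene name, as 10 cyclophilin and FKBP genes other than the Hsp90-bound cyclophilins CPR6 and CPR7. 9 of the 10 were found by symbol among the array's 6051 genes and unnamed spots, namely 6 cyclophilins (CPR1, CPR2, CPR3, CPR4, CPR5 and CPR8) and 3 FKBPs (FPR2, FPR3 and FPR4). No spot carried the symbol FPR1, so that gene is not analysed here. CPR4 had 2 spots and every other gene of the family had 1, which gave 10 spots of 6084. Their levels were compared between 2 arrays of Saccharomyces cerevisiae cells carrying hsf1-R206S/F256S, an allele that alters 2 amino acids of the heat shock transcription factor, and 2 arrays of cells with wild-type HSF1. Both strains had been kept at 39 °C for 15 min, so no unheated level is known and the values say nothing of induction. The labels give neither the strain background nor how the alleles are carried, and nothing there tells if each replicate was its own culture, so p-values measure only the spread between arrays, which may be technical. The allele is a pair of amino acid changes, so HSF1's own level does not check the labels.

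Each array carried 1 sample as 33P-labelled cDNA, and intensities are in arbitrary units after quantile normalization. Median deposited intensities were 8.49 and 11.9 on the mutant arrays and 5.86 and 6.28 on the wild-type arrays. A spot counted as above background when its deposited value exceeded 3 noise SDs of its array. The share of spots above background was 41.5% to 61.2% on the mutant arrays and 24.9% to 40.6% on the wild-type arrays. This gap in sensitivity ran with strain, and its part in the results on dim genes was not tested. Probes differ in their response, so levels are compared between strains and never between genes.

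As a family the isomerases did not move in 1 direction. Mean levels in the mutant were higher for 4 of the 9 genes and lower for 5, with a median log2 difference of -0.51, against 0.01 over all genes tested. Under a fold rule without a p-value, which asks for at least a 2-fold difference and no overlap between strains, CPR1 and FPR2 were called lower in the mutant and FPR4 higher. Of all genes tested, 12.8% met that rule downward, 13.5% upward and 26.3% in either direction, so 2 and 1 of 9 genes are not far from the array as a whole. After quantile normalization the strains did not overlap for 8 of the 9 genes, all but CPR3, against 40.4% of all genes tested. These include FPR2, which was within background on every array. With the values as deposited, CPR2 and CPR8 overlapped between strains. For 5 of the 9 genes the difference between strain means was wider than the gap between the replicates of each strain, against 28.0% of all genes. They were CPR1, CPR2, CPR4, CPR5 and FPR4. Of these, FPR4 was within background on both wild-type arrays, and CPR4 is an average of spots that disagreed. In limma no gene of the family passed an adjusted p of 0.05, nor did any of the 6051 genes. At an unadjusted p under 0.05 there were 0 genes of the family, against 11.7% of all genes tested. With 2 arrays a strain the smallest two-sided p of an exact permutation test is 0.333.

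**Figure D1:**
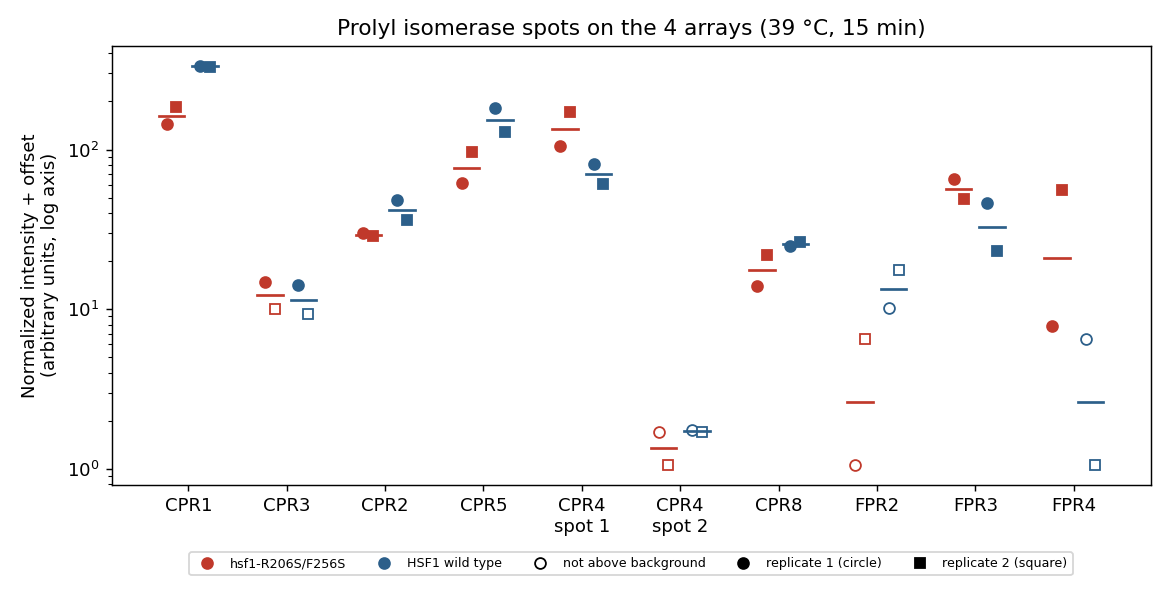
Quantile-normalized intensity plus the offset (arbitrary units, log axis) for the 10 spots of the family, with mutant arrays in red to the left of wild-type arrays in blue; circles are replicate 1, squares replicate 2, bars the mean on the log scale, and open symbols lie within background. CPR1, CPR2, CPR5 and CPR8 sit lower on both mutant arrays, the brighter CPR4 spot and FPR3 sit higher, and all 4 FPR2 points are within background.

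CPR1 (YDR155C), which encodes the major cytosolic cyclophilin, the target through which cyclosporin A inhibits calcineurin, was lower in the mutant. Its normalized intensity was 142 and 183 on the mutant arrays, against 333 and 330 on the wild-type arrays. The groups were clearly apart, and the wild-type pair was almost identical. The means were 163 ± 28.5 in the mutant and 331 ± 2.58 in the wild type (SD, n = 2 each). The level was 2.05-fold lower, a log2 difference of -1.03 (SE 0.39, 95% interval -2.16 to 0.10), with an adjusted p of 0.461 in limma. CPR1 lies just past the 2-fold limit: the log2 difference was -0.85 without mutant replicate 1, which ended the call, and -1.84 with median scaling. An offset of 16 also ended the call, at -0.97 (SE 0.18). Of all genes tested, 18.5% had a log2 difference at or below that of CPR1.

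CPR3 (YML078W), the cyclophilin of the mitochondrial matrix that speeds folding of imported proteins, showed no separation. Its intensity was 13.8 and 9.0 on the mutant arrays, against 13.03 and 8.19 on the wild-type arrays. In each strain the first replicate was above background and the second was not. The log2 difference was 0.10 (SE 0.48, 95% interval -1.30 to 1.49), so a change of 2-fold in either direction lies within the interval. Its sign turned to -0.21 when wild-type replicate 2 was left out, to -0.18 without mutant replicate 1 and to -0.053 under cyclic loess.

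The secretory pathway genes differed in direction among themselves. CPR5 (YDR304C), a cyclophilin of the endoplasmic reticulum, had intensities of 60.3 and 95.4 on the mutant arrays, against 182 and 127 on the wild-type arrays. Both mutant arrays lay below both wild-type arrays, with means of 77.8 ± 24.8 in the mutant and 155 ± 38.9 in the wild type (SD, n = 2 each). The fold was 1.99-fold lower, or -0.99 (SE 0.48, log2), just short of the 2-fold limit, with an adjusted p of 0.560 in limma. CPR5 met the fold rule at -1.32 without mutant replicate 2, at -1.25 without wild-type replicate 2 and at -1.36 with median scaling. It fell short at -0.67 without mutant replicate 1 and at -0.74 without wild-type replicate 1. The log2 difference also fell short as deposited, at -0.91, and with an offset of 16, at -0.87.

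CPR2 (YHR057C), a paralog of CPR5 whose product also enters the secretory pathway, was lower by less. Its intensity was 29.0 and 27.6 on the mutant arrays, against 46.9 and 35.3 on the wild-type arrays. The mutant pair was tight and below both wild-type values. The log2 difference was -0.51 (SE 0.39), or 1.43-fold lower, with an adjusted p of 0.689 in limma, and it was -0.03 with the values as deposited. CPR8 (YNR028W), another secretory cyclophilin, had 12.9 and 20.8 on the mutant arrays, against 23.8 and 25.3 on the wild-type arrays. These did not overlap, but the gap between the mutant replicates, 0.65 on the log2 scale, was wider than the strain difference of -0.55 (SE 0.44, adjusted p of 0.689 in limma), which was 0.057 with the values as deposited.

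CPR4 (YCR069W), the paralog of CPR8, was measured by spots that disagreed. The brighter spot read 104 and 171 on the mutant arrays, against 79.5 and 59.8 on the wild-type arrays. By that spot CPR4 was higher in the mutant with no overlap, with means of 138 ± 47.3 in the mutant and 69.7 ± 13.97 in the wild type (SD, n = 2 each). The difference was 1.92-fold, or 0.94 (SE 0.48, log2), and the spot's adjusted p over all spots was 0.579 in limma. The other spot was not above background on any array, with normalized values from 0 to 0.644 in the mutant and from 0.628 to 0.692 in the wild type. Averaging both on the log2 scale, as was done for every gene with several spots, gave 0.29 (SE 0.37, adjusted p of 0.791 in limma) and so a much smaller difference than the readable spot. Cyclic loess took the average to 0.73. With values at or below 0 left out it was 2.13 and met the fold rule, since mutant replicate 2 then lost its dim spot while the other 3 arrays kept theirs. The current gene table lists YCR070W as a synonym of CPR4. Which stretch of the gene either spot covers is not known from the files.

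FPR2 (YDR519W), an FKBP of the endoplasmic reticulum, was not above background on any array. Its normalized values were 0 and 5.48 on the mutant arrays, against 9.08 and 16.4 on the wild-type arrays. The mutant values were the lower ones and FPR2 met the fold rule at -2.34 (SE 1.09, log2), yet no fold is given, since both strains lay within background. The deposited value on mutant replicate 1 was negative. Without mutant replicate 1 the log2 difference was -1.03, and without mutant replicate 2 it was -3.65. With a larger offset of 16 it was -0.62 and no longer called.

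The nucleolar FKBPs were both higher in the mutant. FPR3 (YML074C), a highly charged nucleolar protein, had intensities of 64.5 and 47.6 on the mutant arrays, against 45.0 and 22.2 on the wild-type arrays. The groups only just failed to overlap, at 0.08 on the log2 scale between the lower mutant and the higher wild-type array. Its means were 56.0 ± 12.0 in the mutant and 33.6 ± 16.2 in the wild type (SD, n = 2 each), 1.73-fold higher, or 0.79 (SE 0.54, log2), with an adjusted p of 0.681 in limma. The log2 difference was 0.29 without wild-type replicate 2. FPR3 met the fold rule upward at 1.28 without wild-type replicate 1, at 1.00 without mutant replicate 2 and at 1.19 with the values as deposited.

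FPR4 (YLR449W), the paralog of FPR3, encodes a nuclear isomerase and histone chaperone that acts on prolines of histone H3. Its normalized values were 6.82 and 54.8 on the mutant arrays, against 5.43 and 0 on the wild-type arrays. Both mutant arrays and no wild-type array were above background, and mutant replicate 2 alone carried a strong signal. The fitted log2 difference of 3.0 (SE 1.49, adjusted p of 0.575 in limma) was higher than that of 98.99% of genes or equal to it. But with the wild type at its background limit the bound is only at least 1.27-fold higher, and the bound itself was not tested. That bound rests on mutant replicate 2: without it the ratio was 0.477, which leaves no bound. Leaving out mutant replicate 2 gave a log2 difference of 1.59 and leaving out mutant replicate 1 gave 4.41. Of the wild-type arrays, omitting replicate 2 gave 1.69 and omitting replicate 1 gave 4.31.

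**Figure D2:**
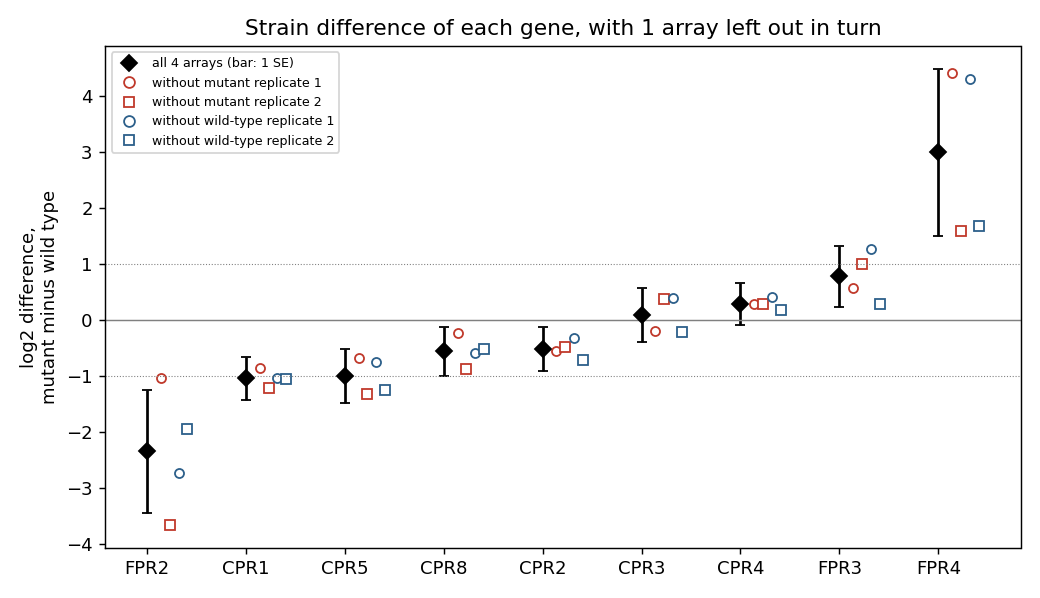
Log2 difference, mutant minus wild type, of the 9 genes (diamonds, bars 1 SE) with the value after leaving out each array in turn (open symbols); dotted lines mark a 2-fold difference. CPR1, CPR5, CPR8, CPR2 and FPR2 stay below 0 and CPR4, FPR3 and FPR4 above 0 in all 4 fits without 1 array, CPR3 changes sign, and FPR2 and FPR4 have the widest spread.

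Related genes were also set against each other array by array, as the difference between their log2 differences. 4 pairs were compared, each with a two-sided exact permutation test over the 4 arrays, which cannot go below 0.333. The brighter CPR4 spot against CPR8 gave 1.49, from log2 ratios of 2.91 and 2.97 on the mutant arrays, against 1.70 and 1.21 on the wild-type arrays, so the strains lay further apart than the replicates (exact p = 0.333, adjusted p = 0.444). That spot was taken after the CPR4 spots were seen to disagree, in place of their average. CPR5 against CPR2 gave -0.48, from log2 ratios of 1.03 and 1.75 on the mutant arrays, against 1.93 and 1.82 on the wild-type arrays. These did not overlap, but the mutant replicates lay further apart than the strain means (exact p = 0.333, adjusted p = 0.444). FPR4 against FPR3 gave 2.21 with overlap (exact p = 0.667). Since this exact test cannot pass at 2 arrays a strain, its p-values show neither a difference nor likeness between paired genes.

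The Hsp90-bound cyclophilin CPR6 (YLR216C), which is not counted in the family here, differed by far more than CPR1. CPR6 read 38.4 and 16.9 on the mutant arrays, against 583 and 697 on the wild-type arrays. Its log2 difference was -4.58 (SE 0.57, adjusted p of 0.277 in limma). The difference of CPR6 from CPR1 was -3.55 on the log2 scale, with both mutant arrays below both wild-type arrays (exact p = 0.333, adjusted p = 0.444). The other Hsp90-bound cyclophilin, CPR7 (YJR032W), had 20.7 and 25.1 on the mutant arrays, against 18.1 and 25.7 on the wild-type arrays, which overlapped. RRD1 and RRD2, activators of PP2A-type phosphatases that also have isomerase activity, had log2 differences of -0.42 (SE 0.41) and -0.58 (SE 0.55). Of the 5 other isomerases listed, ESS1 had no spot under its symbol, and of the 4 measured, CPR6 alone met the fold rule. Of all genes tested, 26.3% met that rule in either direction.

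**Figure D3:**
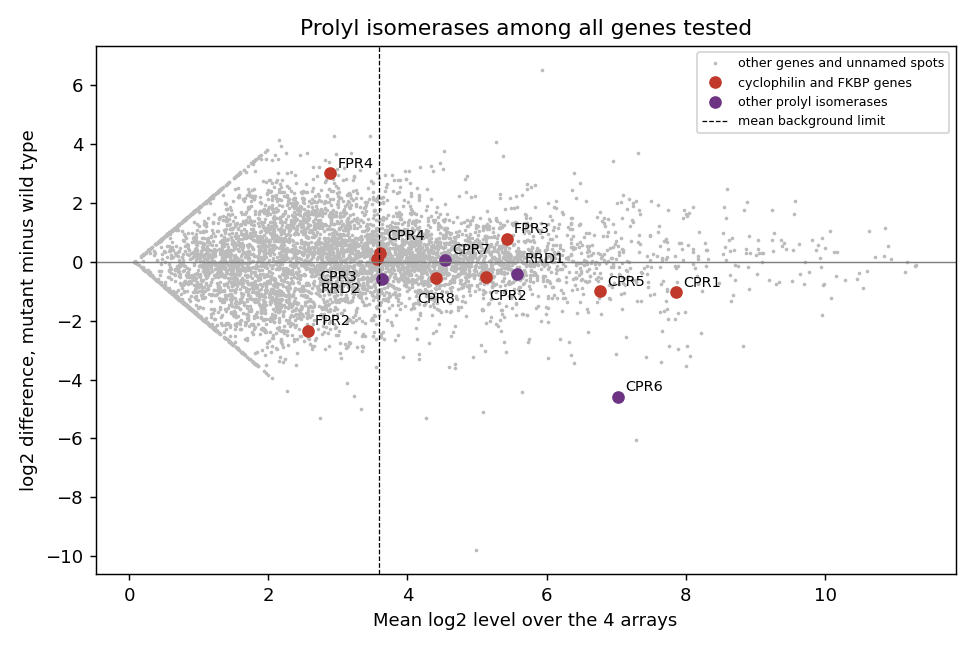
Log2 difference, mutant minus wild type, against the mean log2 level over the 4 arrays for all genes tested (grey), the 9 cyclophilin and FKBP genes (red) and the 4 other isomerases (purple); the dashed line is the mean background limit. CPR6 is the lowest of the isomerases at -4.58, and CPR1 and CPR5 lie near -1. FPR2, FPR4 and, narrowly, CPR3 fall left of the limit, the side on which the grey points spread widest.

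The partners of the isomerases were read from lists made from general knowledge. The list for calcineurin, which drug-bound Cpr1 and Fpr1 inhibit, holds its subunit genes and the pathway genes RCN1 and CRZ1. The list's median of -0.54 is the value of CRZ1. Of the 5 genes, 1 was past the fold rule upward and 1 downward, against 13.5% and 12.8% of all genes tested. The upward gene was RCN1 (YKL159C), a regulator of calcineurin, with 136 and 128 on the mutant arrays, against 29.9 and 15.5 on the wild-type arrays, or 2.55 (SE 0.50, log2, adjusted p of 0.301 in limma). Only 1 wild-type array was above background there. The catalytic subunit gene CNA1 was the downward one, but not above background on any array. The other catalytic subunit gene, CMP2, had a log2 difference of -0.42 (SE 0.54). The remaining subunit gene, CNB1, had -0.76 (SE 1.07) and was also not above background on any array.

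Of 5 genes of TORC1, the target of rapamycin bound to Fpr1, TOR1 and LST8 met the fold rule downward and TCO89 upward. Of all genes tested, 12.8% met that rule downward, 13.5% upward and 26.3% in either direction. The list's median of -0.41 is the value of KOG1, which was not above background on any array. LST8 (YNL006W) read 9.87 and 0 on the mutant arrays, against 32.9 and 46.3 on the wild-type arrays. Its log2 difference was -3.56 (SE 1.33, adjusted p of 0.461 in limma), with only 1 mutant array above background. TOR1 was 2.18-fold lower, or -1.12 (SE 0.59, log2, adjusted p of 0.594 in limma). Its wild-type replicates were far apart, at 18.8 and 41.5. TCO89 was 2.62-fold higher, or 1.39 (SE 0.60, log2, adjusted p of 0.523 in limma), with only 1 wild-type array above background. In the Set3 histone deacetylase complex, which holds Cpr1, SIF2 was the 1 of 6 genes past the rule, downward and not above background on any array, and the median was -0.03.

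Most genes of the nucleolar list were too dim in the wild type to be sized. 6 of its 7 genes were above background on 0 wild-type arrays. 3 of the 7 were past the fold rule upward, against 13.5% of all genes, and 0 downward. The list's median of 1.72 is the value of CBF5, whose strains overlapped. NSR1, a nucleolin-like protein gene and the 1 member above background on all 4 arrays, read 47.1 and 53.7 on the mutant arrays, against 68.0 and 44.3 on the wild-type arrays, a log2 difference of -0.13 (SE 0.43). GAR1 had -0.18 (SE 0.81) and was not above background on any array. NOP56 (YLR197W), a core protein of box C/D ribonucleoproteins, read 71.7 and 30.0 on the mutant arrays, against 3.49 and 5.76 on the wild-type arrays, at least 2.88-fold higher. NHP2, of box H/ACA ribonucleoproteins, was at least 1.41-fold higher with both mutant arrays, but the ratio was 0.942 without mutant replicate 1, which leaves no bound. NOP58 met the rule too, but its mutant mean lay below the wild-type background limit and it has no bound. The histone genes had 0 of 4 past the rule, but the histone H4 genes HHF1 and HHF2 were not above background on any array. HHT1 and HHT2, which encode histone H3, were 1.5-fold and 1.61-fold lower (adjusted p of 0.670 and 0.605 in limma). Their strains did not overlap, which held for 40.4% of all genes tested in either direction.

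**Figure D4:**
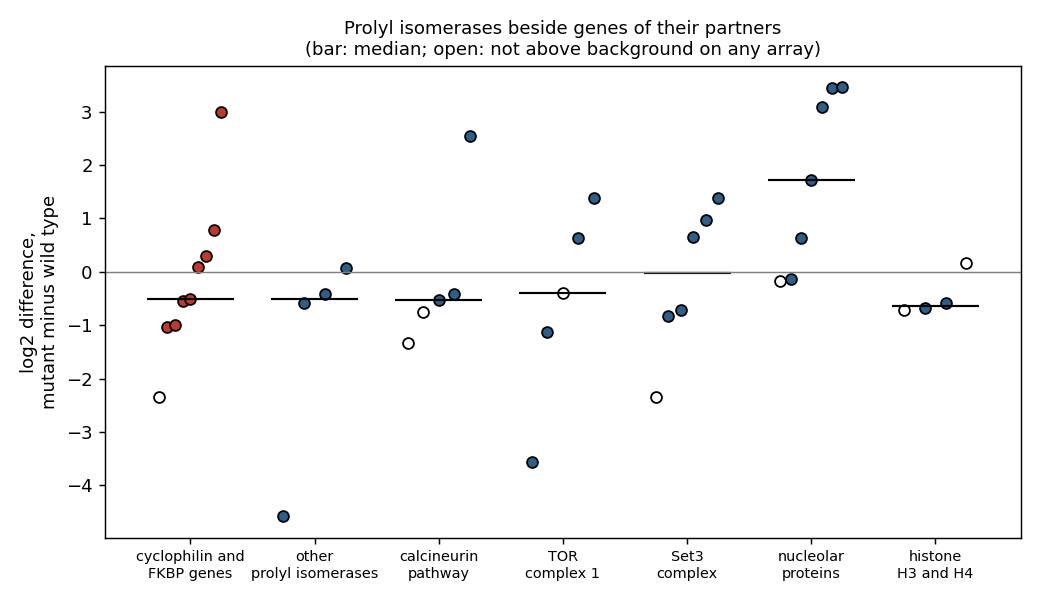
Log2 difference, mutant minus wild type, of each gene of the family and of the 6 lists beside it, with the list median as a bar and open points for genes not above background on any array. The family spans -2.34 (FPR2, within background on every array) to 3.0 (FPR4, dim on both wild-type arrays) around a median of -0.51. CPR6 lies lowest at -4.58, and the nucleolar list has a median of 1.72 with 6 of its 7 genes dim on both wild-type arrays.

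The closest patterns to CPR1 over the 4 arrays were sought among bright genes, those whose mean log2 level exceeded the mean background limit. Likeness was the Euclidean distance between log2 values centred on each gene's mean. ATG33, ARC40 and UBC4 lay closest to CPR1, at 0.07, 0.14 and 0.17, and their own log2 differences ran from -1.14 to -1.06. With only 4 arrays such likeness is common: 107 of 2219 candidates lay within 0.5 of CPR1. FPR4 itself lay below the limit set for candidates, so no closest genes are given for it.

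The scaling between arrays shifts every difference, so it was varied. The median difference of all genes was 0.01 with quantile normalization, 0.63 with the values as deposited, 0.27 with median scaling and -0.0016 with cyclic loess. Upward calls made up 51.4% of all fold-rule calls with quantile normalization, against 83.4% as deposited and 67.2% with median scaling. Relative to that median, the log2 difference of CPR1 was -1.05 with quantile normalization, -2.02 as deposited, -2.10 with median scaling and -1.18 with cyclic loess. CPR5 relative to the median was -1.01, -1.54, -1.62 and -0.93 in the same order. CPR2 and CPR8 stayed below the median of all genes under all 4 scalings, between -0.73 and -0.53 for CPR2 and between -0.64 and -0.56 for CPR8. FPR3 and FPR4 stayed above it, from 0.49 to 0.77 for FPR3 and from 2.62 to 2.98 for FPR4.

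**Figure D5:**
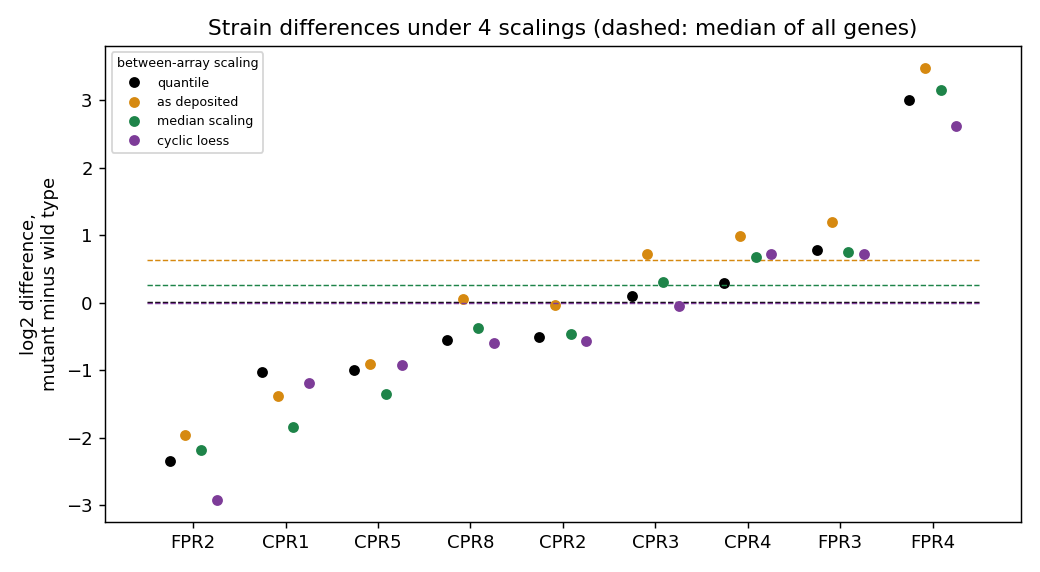
Log2 difference, mutant minus wild type, of the 9 genes under 4 ways of scaling the arrays (colours), with the median of all genes under each as a dashed line. CPR1 ranges from -1.84 to -1.03, CPR8 reaches 0.057 with the values as deposited, where the median of all genes is 0.63, and CPR3 lies close to the median under each scaling.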

How the data were processed

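Per the labels, oligo(dT)-primed cDNA of total RNA was labelled with 33P-dCTP. The deposited table holds 1 linear intensity per spot and array, negative in part, with array means of 32.4 to 32.6. How the authors read the spots, removed background and scaled the arrays is not given in the labels. Platform annotation gave 1 symbol for 5523 of 6084 spots and none for 561, and all 5523 matched the RefSeq gene table of assembly R64.

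Quantile normalization across arrays used limma 3.58.1 (R 4.3.3). Values below 0 were set to 0, an offset of 1.06 (5th percentile of positive values) was added, and log2 taken. The offset shrinks folds of dim genes. Spots of a gene were averaged. The test was limma (lmFit, eBayes, two-sided, 2 residual and 1.54 prior degrees of freedom) over 6051 genes with Benjamini-Hochberg adjustment, without a replicate block. Noise SD per array was estimated from the negative values. The number of arrays limits the precision. A bound sets a gene dim throughout 1 strain at the lowest normalized value above background on each array there, or at its own value if higher. From each list, genes past the fold rule are named, up to 3 by size. CMP2, CNB1, CRZ1, KOG1, NSR1, GAR1, CBF5, HHT1, HHT2, HHF1 and HHF2 were named after their values were seen. Members and lists were chosen with earlier results of these data known. The fit was tested on simulated data. No sequences were printed.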

Additional observations from a re-analysis of the deposited data

How the results depend on the processing

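The direction of CPR1, CPR2, CPR4, CPR5, FPR2, FPR3 and FPR4 was the same in every alternative run. CPR3 turned to -0.053 under cyclic loess and ran from -0.21 to 0.40 over the fits that leave out 1 array, and CPR8 turned to 0.057 as deposited; the cause was not tested. No gene of the family passed an adjusted p of 0.05 in limma under any alternative. Over all genes that count was 0, and 12 with only bright genes, where 2220 genes are tested. Genes of the family past the fold rule upward numbered 1, against 2 as deposited, 2 with values at or below 0 left out (CPR4 joined), 0 with only bright genes, and 1 to 2 without 1 array. Over all genes the upward share was 13.5%, against 28.1%, 11.8% and 12.7% in the first 3 of these and 17.4% to 21.3% without 1 array. Downward they numbered 2, against 0 with an offset of 16 (CPR1 at -0.97), 1 with only bright genes (FPR2 is not tested there), 3 with median scaling and 1 to 3 without 1 array. The downward share of all genes was 12.8%, against 2.13%, 9.91%, 9.14% and 16.5% to 23.2%. Fits without 1 array assume that the lone array varies like the other strain. With only bright genes, CPR3, FPR2 and FPR4 give no value. With the replicate block, the counts were 0 genes past the adjusted p, 1 upward and 2 downward. The deviations of same-numbered arrays from their strain means correlated at r = 0.02 over all genes. That value cannot tell if the shared number marks a real pairing. The brighter CPR4 spot alone, an alternative chosen after seeing the data, gave 0.94.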
